A study of Mus musculus with 33 samples.

Results

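Interferon-stimulated genes are the genes that cells switch on when an interferon binds its receptor. The set described here is a list of 43 such genes, chosen by name. Of the 43, 39 had a probe set carrying their symbol alone, out of 18193 genes measured that way. Each gene was read from its brightest such probe set over all columns. Isg15, Oas1g, Trex1 and Ifi44 had no probe set of their own and are not analysed here.

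RNA came from mouse liver at 12 months of age on Affymetrix arrays, in which each gene is read by short probes on a chip. All mice were of mixed strain background, from FVB/NT, 129S1/Svlmj and C57BL/6NT. The groups were 7 normal livers of wild-type mice (wt), 5 normal livers of E2f3a knock-out mice (3aKO), 5 hepatocellular carcinomas of E2f1 knock-in mice (1KI) and 4 hepatocellular carcinomas of E2f3b knock-in mice (3bKI). E2f1, E2f3a and E2f3b are members of the E2F family of transcription factors, which control genes of the cell cycle. The tumours had arisen spontaneously, and no normal liver of a knock-in mouse is among the samples, so genotype and tumour cannot be told apart in 1KI or 3bKI. The labels do not give the locus of the knock-in alleles, whether any mice were littermates, or how much non-tumour liver a tumour sample held. The deposited table holds the wt and 3aKO arrays in both of 2 normalization runs, with 1KI in normalization 1 and 3bKI in normalization 2. The tumour groups were therefore each set against wt and 3aKO, and the difference between the tumour groups was not tested. All levels are log2 values, so a difference of 1 is a doubling, and levels of different genes are not set against each other because probes differ in brightness.

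Type I interferons signal through the receptor Ifnar1/Ifnar2 and the kinases Jak1 and Tyk2 to a transcription factor complex that includes Stat2 and Irf9 and binds a DNA element called the interferon-stimulated response element (ISRE). Interferon gamma, made mainly by T and NK cells, signals through a separate receptor and acts on a different DNA element, the gamma-activated site (GAS). The products detect foreign RNA, block viral replication, strip the ubiquitin-like protein ISG15 from proteins or damp the signal. The GBP and IRG GTPases attack the vacuoles in which microbes live. In liver, hepatocytes, Kupffer cells and endothelial cells can all respond.

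Medians over all probe sets were 5.48 to 5.53 across arrays of normalization 1 and 5.34 to 5.43 across those of normalization 2. Tumours 1KI 3 and 1KI 4 stood apart on the first principal component of normalization 1, at 61.0 and 69.8, against -17.0 to 5.08 for the other arrays. On the first component of normalization 2 the 3bKI tumours lay at 16.3 to 38.5 and the normal livers at -31.8 to 14.04. Xist and 3 Y-linked genes marked 3 wt, 3 3aKO and 2 1KI arrays as female and the rest of those groups as male; 3 of the 3bKI tumours were female and tumour 3bKI 2 was low for both. The actin 3′ minus 5′ difference, a measure of RNA degradation, was 0.70 to 0.87 in the 3bKI tumours against 0.65 to 1.37 in wt and 1.06 to 1.35 in 3aKO of normalization 2. Its part in the results was not tested. Hepatocyte markers, among them Apob and Hnf4a, were bright in every group, with a mean over 7 markers of at least 13.54 on every array.

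Promoter sequence shows which of these genes carry the binding letters of the interferon factors next to their start. RefSeq promoter windows (GRCm38.p6, 250 bases before to 50 after the start) were at hand for 31 of the 43 genes. The ISRE was searched as GAAANNGAAA and the GAS as TTCNNNGAA, on both strands, and the motifs may overlap. ISRE letters were present in a window of 16 of the 31 genes (51.6%), against 3.99% of the 27025 genes in the table. GAS letters were present for 9 of the 31 (29.0%), against 9.55% of those genes. The 5 stretches printed here are the 150 bases before the start on the strand of the gene, with matches in capitals. The first 3 belong to genes with log2 changes of 1.12 to 2.21 in 1KI against wt, of which that of Ifit1 was not called, and the last 2 to interferon gamma GTPases that carried ISRE letters and were not called in any comparison.
Ifit1, chr19:34640739-34640888, plus strand: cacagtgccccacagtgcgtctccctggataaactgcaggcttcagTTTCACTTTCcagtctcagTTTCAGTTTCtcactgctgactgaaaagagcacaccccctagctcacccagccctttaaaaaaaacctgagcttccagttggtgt
Oas1a, chr5:120907526-120907675, minus strand: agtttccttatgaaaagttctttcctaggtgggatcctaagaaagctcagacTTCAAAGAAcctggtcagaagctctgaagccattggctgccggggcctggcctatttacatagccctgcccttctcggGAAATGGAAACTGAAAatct
Bst2, chr8:71537473-71537622, minus strand: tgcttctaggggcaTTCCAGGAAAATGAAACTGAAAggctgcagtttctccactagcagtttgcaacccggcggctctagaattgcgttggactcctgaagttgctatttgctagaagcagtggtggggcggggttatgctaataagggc
Gbp2, chr3:142620513-142620662, plus strand: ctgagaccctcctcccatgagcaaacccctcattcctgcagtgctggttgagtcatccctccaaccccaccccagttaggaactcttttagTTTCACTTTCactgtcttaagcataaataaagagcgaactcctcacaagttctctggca
Igtp, chr11:58199406-58199555, plus strand: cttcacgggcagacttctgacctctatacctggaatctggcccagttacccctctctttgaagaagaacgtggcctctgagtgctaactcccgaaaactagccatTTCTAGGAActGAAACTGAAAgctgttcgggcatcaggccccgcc

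In Ifit1 the ISRE letters occur on the opposite strand, at 104 and 85 bases before the start, and read as TTTCNNTTTC on the printed strand. In Oas1a overlapping ISRE matches begin 20 and 14 bases before the start. In Bst2 the pair begins 130 and 124 bases before it and runs into GAS letters at 136 bases. Gbp2 has its match 59 bases before the start and Igtp 34 bases before it. A match is a description of these letters and not of binding. Among measured genes the median log2 change in 1KI against wt was 0.39 for the 14 with ISRE letters in a window and 0.45 for the 13 without. In 3bKI against wt it was 0.46 for the 14 and 0.68 for the 13. Called higher in 1KI were 3 of the 14 and 0 of the 13, and in 3bKI 1 of the 14 and 2 of the 13. The other 12 measured genes had no window in the table, and they include Usp18, Ifi27 and Ifi27l2b, which were 3 of the 6 genes called in each of these comparisons. Medians and calls thus did not order the groups the same way in 1KI.

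Across arrays, the mean of the set lay above that of wild-type liver in every tumour. This mean over the 39 genes of log2 value minus the wt mean was 0.29, 0.82, 0.56, 1.18 and 0.77 in 1KI tumours 1 to 5. It was 0.19, 0.69, 1.30 and 0.35 in 3bKI tumours 1 to 4. In normalization 1 the wt livers ran from -0.42 through a median of -0.058 to 0.42, and the 3aKO livers stood at -0.28, -0.34, 0.19, -0.20 and 0.37. Thus 4 of the 5 1KI tumours and 2 of the 4 3bKI tumours lay above every normal liver, while 1KI 1, 3bKI 1 and 3bKI 4 fell within the normal range. The tumours also differed among themselves: 1KI 4 held the highest 1KI value for 24 of the 39 genes and 3bKI 3 the highest 3bKI value for 34. These are bulk tissue samples, so more responding cells and more RNA per cell cannot be told apart.

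**Figure D1:**
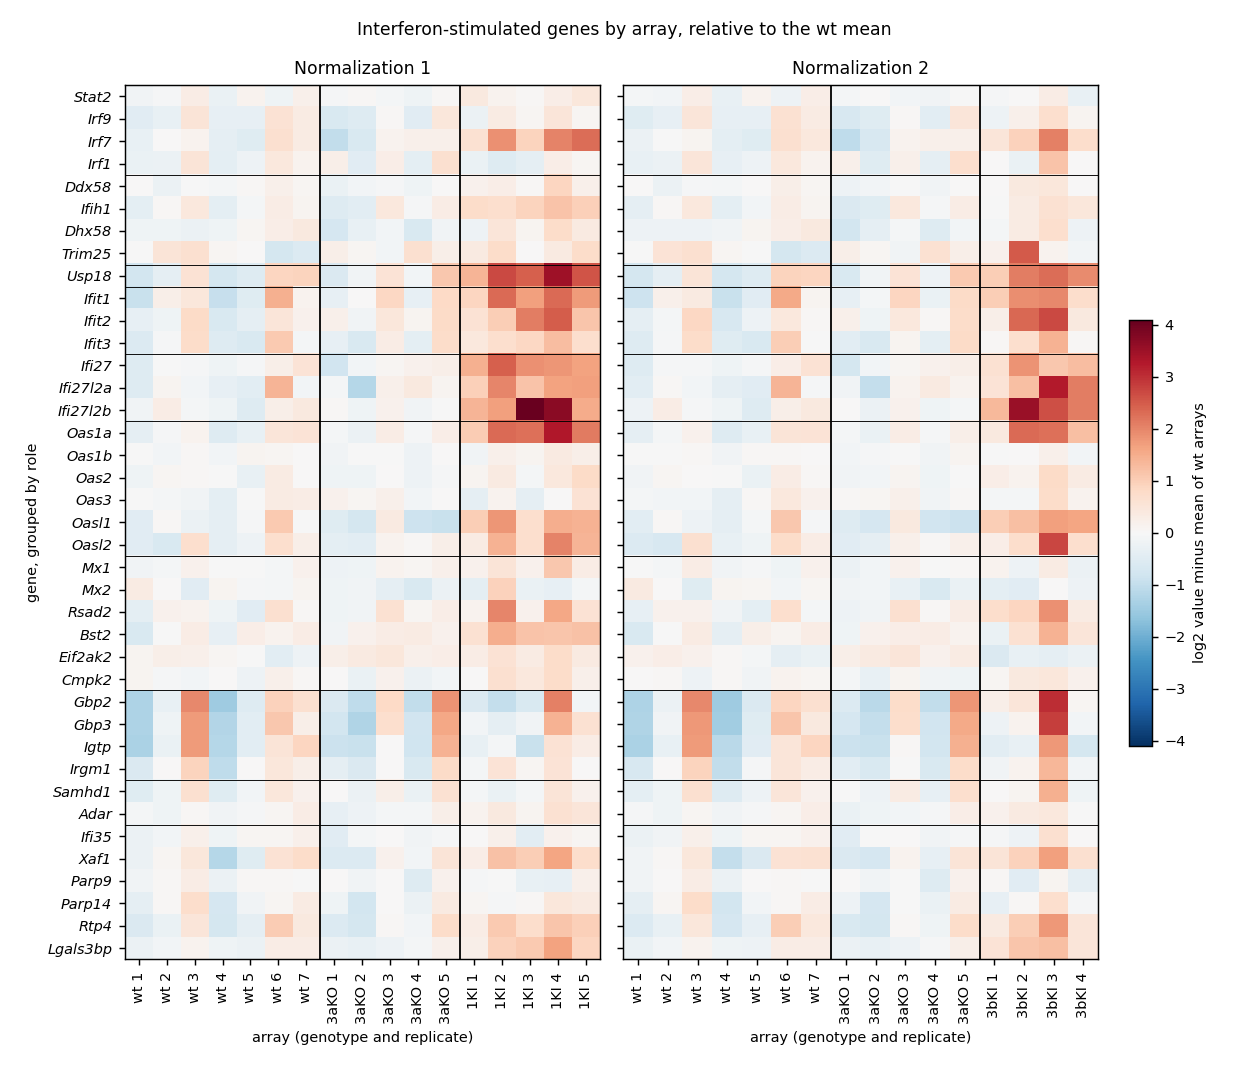
Heat map of the 39 measured genes (rows, grouped by role) on every array (columns), coloured by the log2 value minus the mean of the wt arrays of the same normalization. The tumour columns are red for Usp18, the Ifi27 family, Oas1a and Irf7, whereas the rows of Gbp3 and Igtp hold both red and blue within every genotype.

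In 1KI tumours against wild-type liver, Usp18, Ifi27l2b, Oas1a and Ifi27 rose by log2 changes of 1.85 to 2.52, Bst2 by 1.12 and Ifih1 by 0.90. These 6 of 39 genes passed limma at an adjusted p under 0.05, and none was called lower, where 0.209% of all 18193 genes were called higher. A change above 0 was seen for 34 of the 39 (43.3% of all genes), with a median of 0.45 against -0.033 over all genes; over female arrays alone the members' median was 0.22. In 7 of the 39 every tumour lay above every wt liver, which held for 1.12% of all genes. Ifi27 was called under every alternative tried. The count of 6 fell to 1, Ifi27, without wt 1, wt 2, wt 4 or wt 5, to 2 (Ifi27 and Oas1a) without 1KI 3 or 1KI 5, and to 3 without 1KI 4 or without tumours 3 and 4 together.

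In 1KI tumours against E2f3a knock-out liver, which were normal livers too, none of the 18193 genes passed the threshold and so no member did. The members lay as high as against wt, with 34 of 39 above 0 (45.3% of all genes) and a median of 0.44 against -0.018 over all genes. At an unadjusted p under 0.05, 24 of 39 were higher and 0 lower, where 6% of all genes were higher. In 13 of the 39 every tumour lay above every 3aKO liver, which held for 1.45% of all genes. The lowest adjusted p, in limma, were 0.0603 for Ifi27 and 0.0788 for each of Oasl1, Oas1a, Bst2 and Usp18. The 1KI arrays are shared with the comparison against wt, so the values are not independent of it. Ifi27 was called without 1KI 2, and Ifi27, Bst2 and Oas1a without 1KI 1.

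In 3bKI tumours against wild-type liver, Ifi27l2b, Usp18, Oas1a, Oasl1, Ifi27 and Lgals3bp rose, by log2 changes of 0.86 to 2.40. They made 6 of 39 genes called higher in limma with 0 called lower, where 1.09% of all genes were called higher. A change above 0 was seen for 35 of 39 (53.1% of all genes), with a median of 0.38 against 0.014 over all genes. That median fell to 0.081 without 3bKI 2 and 3 together, to 0.25 without 3bKI 3, and to 0.21 with sex as a term or over female arrays alone. In 4 of the 39 every tumour lay above every wt liver, which held for 1.9% of all genes. The count of 6 fell to 1, Ifi27l2b, without wt 2, wt 3, wt 4, wt 5 or 3bKI 3, or without 3bKI 2 and 3 together, and to 2 without wt 1, 3bKI 2 or 3bKI 4. With sex as a term it was also 1, Ifi27l2b, and over female arrays alone it was 0; both of these fits drop tumour 3bKI 2, whose sex could not be read.

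In 3bKI tumours against E2f3a knock-out liver, 9 of 39 genes were called higher: Oasl1, Ifi27l2b, Lgals3bp, Ifi27, Usp18, Oas1a, Ifi27l2a, Xaf1 and Cmpk2. Across all genes 2.92% were called higher. The kinase gene Eif2ak2 was the 1 member called lower, where 6.27% of all genes were. A change above 0 was seen for 37 of 39 (54.7% of all genes), with a median of 0.48 against 0.030 over all genes. Without 3bKI 2 and 3 together it fell to 0.16, and without 3bKI 3 to 0.32. In 10 of the 39 every tumour lay above every 3aKO liver, which held for 6.03% of all genes. The count of 9 fell to 4 without 3aKO 2, 3aKO 4, 3bKI 2, 3bKI 3 or 3bKI 4, to 5 without 3aKO 1, to 2 with sex as a term and tumour 3bKI 2 dropped, and to 1 without 3bKI 2 and 3 together.

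**Figure D2:**
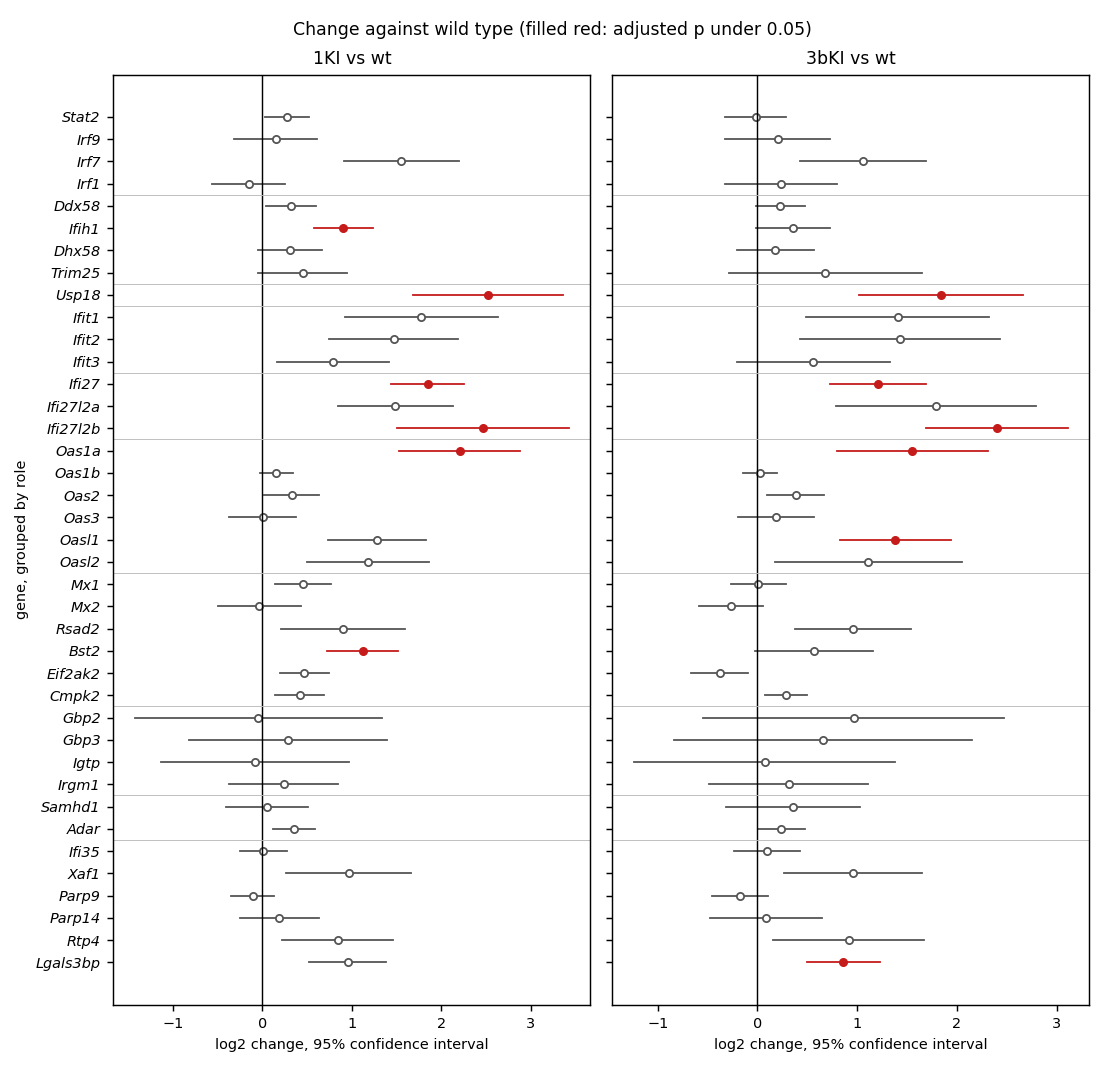
Log2 change against wt with its 95% confidence interval for each of the 39 genes, in 1KI (left) and 3bKI tumours (right), with genes at an adjusted p under 0.05 filled in red. The called genes lie at 0.90 to 2.52 on the left and at 0.86 to 2.40 on the right, and the intervals of the 4 GTPases are wide and span 0.

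Of the transcription factors of the response, Irf7 stood out by size. Irf7 is itself induced by interferon and amplifies the type I response. It read 8.18, 9.44, 8.47, 9.59 and 9.86 in the 1KI tumours, against 7.06, 7.58 and 8.21 (lowest, median and highest) in wt. All 1KI tumours but number 1 were above every wt liver, with a log2 change of 1.55 ± 0.30 (SE) that missed the threshold (adjusted p = 0.0571, limma). In the 3bKI tumours it read 7.85, 8.33, 9.43 and 8.11, against 6.88, 7.36 and 8.02 in wt of that normalization. Here the change was 1.06 ± 0.29 (adjusted p = 0.0767), and 1.29 ± 0.36 against 3aKO (adjusted p = 0.0513). Stat2 and Irf9, of the type I complex, and Irf1, a further factor of the response, had changes against wt of -0.15 to 0.27 in 1KI and of -0.017 to 0.24 in 3bKI, none called.

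Among the RNA sensors, Ifih1 (MDA5, a sensor of long double-stranded RNA) was called in 1KI. It read 9.59, 9.51, 9.75, 10.01 and 9.79 in the 1KI tumours and 8.41, 8.87 and 9.26 in wt. The groups did not overlap, and the log2 change was 0.90 ± 0.15 (adjusted p = 0.0367). The 3bKI tumours read 8.71, 9.08, 9.36 and 9.19 against 8.33, 8.78 and 9.17 in wt, an overlapping range with a change of 0.35 ± 0.17 (adjusted p = 0.265). Ddx58 (RIG-I), Dhx58 (LGP2) and Trim25, the ligase that activates RIG-I, lay between 0.31 and 0.45 in 1KI against wt without a call. Trim25 read 10.07, 12.43, 10.04 and 9.81 in the 3bKI tumours, with tumour 3bKI 2 far above the others, and its change against wt was 0.68 ± 0.45 (adjusted p = 0.409).

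Usp18, the protease that strips ISG15 from proteins and damps signalling at the type I receptor, had the largest change of the 39 genes in 1KI against wt; against 3aKO that of Ifi27l2b was larger, at 2.49 against 2.36. It read 7.84, 9.15, 8.89, 9.91 and 9.01 in the 1KI tumours (probe set 1418191_at) against 5.67, 6.08 and 7.34 in wt. All tumours were above all wt livers, by a log2 change of 2.52 ± 0.39, a 5.74-fold difference (adjusted p = 0.0285). Against the 3aKO livers, at 5.84, 6.28, 6.99, 6.31 and 7.55, the change was 2.36 ± 0.39. In the 3bKI tumours Usp18 read 7.33, 8.40, 8.62 and 8.26, against 5.58, 5.96 and 7.24 in wt of normalization 2. The lowest tumour, 3bKI 1, was just above the highest wt liver. Against wt the change was 1.84 ± 0.38 (adjusted p = 0.0341). Set against 3aKO, at 5.70, 6.17, 6.87, 6.10 and 7.40, it was 1.70 ± 0.36 (adjusted p = 0.0242), although 3aKO 5 was above tumour 3bKI 1.

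The 3 measured genes of the Ifi27 family, which encode small hydrophobic membrane proteins, were higher in all 9 tumours than the mean of wt. Ifi27 (probe set 1452956_a_at) read 11.75, 12.74, 12.16, 12.10 and 11.95 in 1KI, against 9.76, 10.26 and 10.87 in wt and 9.52, 10.17, 10.36, 10.47 and 10.52 in 3aKO. The lowest 1KI tumour exceeded the highest normal liver. The log2 change was 1.85 ± 0.19 against wt (adjusted p = 0.00485), a 3.60-fold difference and the lowest p of any gene in that comparison. The gene read 10.83, 12.02, 11.30 and 11.45 in 3bKI, against 9.67, 10.15 and 10.78 in wt of normalization 2. Tumour 3bKI 1 lay close to the wt maximum, and the change was 1.21 ± 0.22 (adjusted p = 0.0252). The 3aKO livers of that normalization read 9.49, 10.07, 10.26, 10.38 and 10.42, all below the tumours, a change of 1.28 ± 0.25 (adjusted p = 0.0204). The second probe set of the gene gave 1.83 in 1KI and 1.17 in 3bKI against wt.

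Ifi27l2b, read by a probe set of the kind that may also match related transcripts (1425120_x_at), spread more widely among the tumours. In 1KI it read 9.11, 9.40, 11.78, 11.42 and 9.24, against 7.19, 7.66 and 8.14 in wt. Tumours 3 and 4, the same ones that stood apart on the first component, were far above the other 3. The log2 change was 2.46 ± 0.45 (adjusted p = 0.0462). Without both of those tumours it was smaller, at 1.53 (adjusted p = 0.00641). The call was lost without tumour 3 alone (2.07, adjusted p = 0.0743) or tumour 4 alone (2.16, adjusted p = 0.0890), and it held in 10 of 24 alternatives, whose adjusted p in limma ran from 0.00641 to 0.237. In 3bKI it read 8.96, 11.17, 10.26 and 9.71, against 7.10, 7.59 and 8.02 in wt, all above it, with a change of 2.40 ± 0.33 (adjusted p = 0.00800). Against 3aKO, at 7.64, 7.40, 7.79, 7.44 and 7.55, the change was 2.46 ± 0.35 (adjusted p = 0.0109). Ifi27l2a read 6.91, 7.60, 9.61 and 8.44 in 3bKI and 6.21, 5.39, 6.48, 6.72 and 6.49 in 3aKO. It was called in that comparison alone, at 1.88 ± 0.48 (adjusted p = 0.0415), and its change against wt was 1.79 ± 0.46 in 3bKI and 1.49 ± 0.30 in 1KI.

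**Figure D3:**
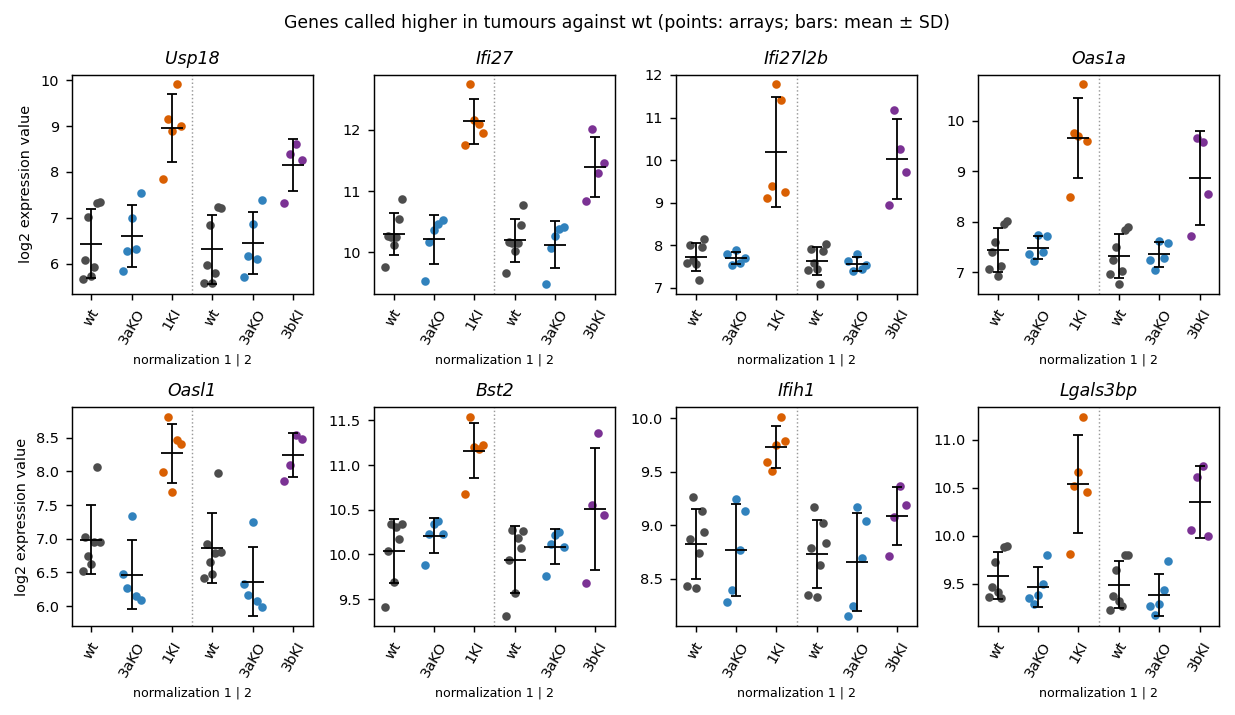
Log2 expression values of the 8 genes called higher against wt in 1KI, 3bKI or both, with a point per array, bars for mean ± SD, and normalization 1 left of the dotted line. Ifi27 in 1KI (lowest tumour 11.75, highest wt liver 10.87) is separated from the normal livers, while 1 3bKI tumour of Bst2 (9.68) lies inside the wt range.

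The oligoadenylate synthetases split. Active enzymes of this family make the short adenylate chains that activate RNase L, which degrades viral RNA. Oasl1 and Oasl2 belong to the same family. Oas1a read 8.49, 9.76, 9.70, 10.71 and 9.59 in 1KI against 6.93, 7.40 and 8.01 in wt. The groups did not overlap, and the log2 change was 2.21 ± 0.31, or 4.62-fold (adjusted p = 0.0207). Oas1a in 3bKI read 7.71, 9.65, 9.57 and 8.54 against 6.78, 7.24 and 7.89 in wt. Tumour 3bKI 1 fell inside the wt range, and the change was 1.55 ± 0.35 (adjusted p = 0.0450). The 3aKO livers read 7.36, 7.22, 7.74, 7.40 and 7.73 beside 1KI and 7.25, 7.05, 7.63, 7.28 and 7.57 beside 3bKI. All were below every tumour, with a change of 2.16 ± 0.32 for 1KI (adjusted p = 0.0788). The 3bKI change of 1.51 ± 0.36 was called (adjusted p = 0.0335).

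Oasl1, which represses translation of Irf7, read 7.86, 8.09, 8.55 and 8.48 in 3bKI and 6.33, 6.16, 7.25, 6.08 and 5.98 in 3aKO. Those groups did not overlap, and the log2 change of 1.88 ± 0.25 (adjusted p = 0.00938) had the lowest p among members in that comparison. Against wt, at 6.42, 6.79 and 7.98, it was 1.38 ± 0.26 (adjusted p = 0.0252), and a single liver, wt 6, reached into the tumour range. In 1KI Oasl1 read 7.99, 8.80, 7.69, 8.46 and 8.40, with a change of 1.28 ± 0.25 against wt (adjusted p = 0.0636). Oasl2 had changes of 1.18 in 1KI and 1.11 in 3bKI against wt without a call. Changes of Oas1b, Oas2 and Oas3 were far smaller, at 0.16, 0.33 and 0.0017 in 1KI and 0.026, 0.38 and 0.19 in 3bKI. Oas3 and Oasl2 were dim, with means over all columns of 5.39 and 5.09. Both are below the dim limit of 5.70, the 40% point of gene means. A small change from such a dim signal, as for Oas3, does not show that the gene stayed level.

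The IFIT genes, whose products bind viral RNA that lacks the host cap, had no called member in either tumour group. Ifit1 read 7.60, 9.04, 8.40, 9.04 and 8.47 in 1KI against 5.80, 6.86 and 8.19 in wt. In 3bKI it read 7.62, 8.49, 8.59 and 7.33 against 5.70, 6.71 and 8.14 in wt. The wt range alone spanned more than 2 log2 units, and the change in 1KI was 1.78 ± 0.39 (adjusted p = 0.0783), while that in 3bKI was 1.40 ± 0.42 (adjusted p = 0.0980). Ifit2 had changes of 1.47 and 1.43, and Ifit3 of 0.79 and 0.56, in the same order.

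Of the antiviral effectors, Bst2 (tetherin, which holds budding virions at the cell surface) was called in 1KI. It read 10.67, 11.54, 11.20, 11.18 and 11.23 in the 1KI tumours and 9.41, 10.18 and 10.34 in wt. All tumours were above all wt livers, and the log2 change was 1.12 ± 0.18 (adjusted p = 0.0334). The 3aKO livers, at 9.88, 10.23, 10.34, 10.37 and 10.23, were also below every 1KI tumour, by 0.95 ± 0.15 (adjusted p = 0.0788). Bst2 read 9.68, 10.56, 11.35 and 10.44 in 3bKI against 9.31, 10.07 and 10.28 in wt, which overlap, and the change was 0.57 ± 0.27 (adjusted p = 0.260). Rsad2 (viperin, which makes a chain-terminating nucleotide) had changes of 0.90 ± 0.32 in 1KI and 0.96 ± 0.27 in 3bKI against wt. Its neighbour in function Cmpk2, a mitochondrial nucleotide kinase, read 5.66, 6.00, 6.03 and 5.77 in 3bKI and 5.49, 5.28, 5.70, 5.43 and 5.40 in 3aKO, a change of 0.41 ± 0.11 at the edge of the threshold (adjusted p = 0.0487). Cmpk2 was dim too, with a mean over all columns of 5.66, just below the dim limit of 5.70. Mx1 and Mx2, dynamin-like restriction factors, had changes between -0.26 and 0.45 against wt in the tumours.

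Eif2ak2 (PKR, which halts translation on double-stranded RNA) did not share the direction of the other called genes. It read 7.57, 7.88, 7.61, 8.03 and 7.64 in 1KI against 6.84, 7.35 and 7.53 in wt, a log2 change of 0.47 ± 0.13 (adjusted p = 0.131). In 3bKI it read 6.37, 6.67, 6.61 and 6.72, against 6.60, 7.03 and 7.26 in wt and 7.20, 7.34, 7.45, 7.14 and 7.29 in 3aKO. Every 3bKI tumour was below every 3aKO liver, and the change of -0.69 ± 0.097 was called (adjusted p = 0.0100). The other 2 probe sets of the gene gave 0.13 and -0.22 there and were not called, and the mean of the probe sets was not called either. The lower value in 3bKI thus rests on the brightest probe set, 1422005_at.

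The GTPases of the interferon gamma response were high in single livers of every genotype. Gbp2, a guanylate-binding protein of cell-autonomous immunity, read 6.87, 6.48, 6.84, 9.54 and 7.35 in 1KI against 6.01, 7.14 and 9.42 in wt. In 3aKO it read 6.87, 6.41, 8.26, 6.46 and 9.32. High and low livers occurred in every group, and the 1KI change was -0.044 ± 0.64 (adjusted p = 0.976), with a 95% interval of -1.42 to 1.34. Its second probe set gave 0.11. In 3bKI it read 7.65, 7.93, 10.45 and 7.51 against 5.98, 7.19 and 9.39 in wt, a change of 0.96 ± 0.69 (adjusted p = 0.457).

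Gbp3, Igtp and Irgm1 had the same livers high. Averaged over the 4 GTPases, the deviation from the wt mean was 1.59 in wt 3, 0.76 in wt 6 and 0.51 in wt 7, but -1.10 in wt 1 and -1.22 in wt 4. It was 1.41 in 3aKO 5, 1.17 in 1KI 4 and 2.25 in 3bKI 3, and at most 0.39 in every other knock-out or tumour array. The median SD within wt was 1.12 over the 4 GTPases, against 0.38 over the 39 members and 0.18 over all genes. No GTPase was called in any of the 5 comparisons, and their changes against wt were -0.084 to 0.28 in 1KI and 0.073 to 0.96 in 3bKI. By the same average, the Ifi27 family was 1.27, 2.04, 2.36, 2.38 and 1.61 in 1KI, where no wt liver exceeded 0.62.

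**Figure D4:**
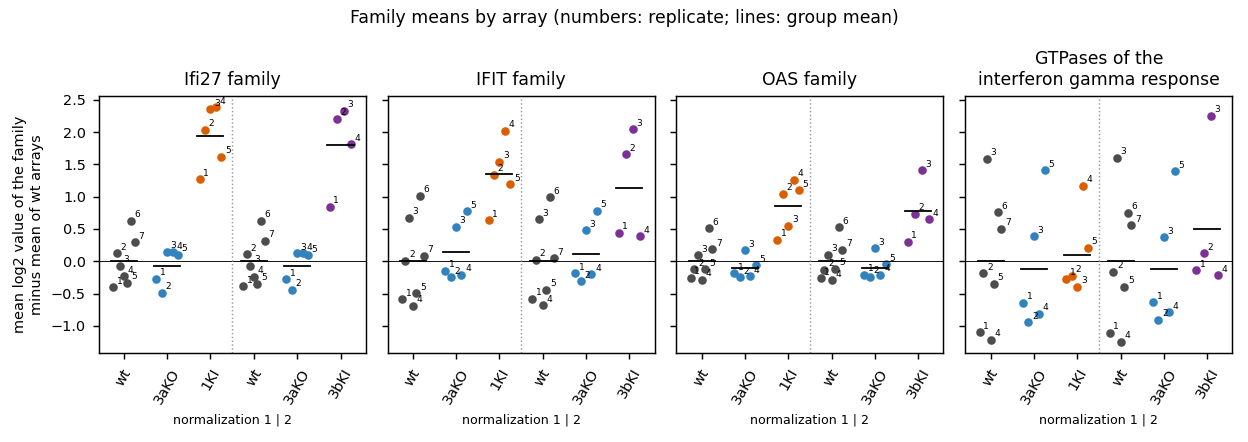
Mean log2 value of the Ifi27 (3 genes), IFIT (3 genes), OAS (6 genes) and interferon gamma GTPase (4 genes) families minus the wt mean, with a numbered point per array and a line at the group mean. The Ifi27 family separates every tumour from every normal liver, whereas the GTPases are high in wt 3, 3aKO 5, 1KI 4 and 3bKI 3 and low or near 0 in most others.

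Among the remaining induced genes, Lgals3bp, a secreted galectin-binding glycoprotein, was called in 3bKI. It read 10.06, 10.61, 10.73 and 9.9975 in 3bKI against 9.23, 9.37 and 9.80 in wt and 9.26, 9.17, 9.29, 9.44 and 9.74 in 3aKO. The tumours lay above all normal livers, and the log2 change from wt was 0.86 ± 0.17 (adjusted p = 0.0307) and that from 3aKO was 0.97 ± 0.18 (adjusted p = 0.0172). In 1KI it read 9.81, 10.52, 10.66, 11.24 and 10.46, a change of 0.95 ± 0.20 against wt (adjusted p = 0.0724). Xaf1, a pro-apoptotic gene, had a change of 1.14 ± 0.29 in 3bKI against 3aKO (adjusted p = 0.0427), with its second probe set at 0.33 and not called. Rtp4 had 0.84 in 1KI and 0.92 in 3bKI against wt, and Ifi35, Parp9 and Parp14 had -0.18 to 0.19. Samhd1, which depletes nucleotides, and Adar, which edits double-stranded RNA, had 0.050 and 0.35 in 1KI and 0.36 and 0.24 in 3bKI.

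In normal livers of E2f3a knock-out mice no member was called against wt (0% of all genes were), 1 was higher and 2 were lower at an unadjusted p under 0.05, where 3.62% and 3.84% of all genes were. A change above 0 was seen for 13 of 39 (50.5% of all genes), with a median of -0.085. The lowest p belonged to Eif2ak2, which read 7.52, 7.65, 7.73, 7.48 and 7.56 in 3aKO against 6.84, 7.35 and 7.53 in wt, with a log2 change of 0.31 ± 0.11 (adjusted p = 0.641). The groups overlapped by the highest wt livers, and the probe sets of Eif2ak2 had mixed signs. Dhx58 read 6.23, 6.61, 6.79, 6.29 and 6.78 against 6.67, 6.75 and 7.30 in wt, a change of -0.37 ± 0.14 at the same adjusted p. Mx2 read 7.40, 7.43, 7.19, 6.96 and 7.35 against 7.10, 7.61 and 7.91, a change of -0.31 ± 0.13 (adjusted p = 0.655). Oasl1 and Ifi35 followed, at -0.52 ± 0.26 and -0.15 ± 0.11. Oasl1 read 6.48, 6.27, 7.34, 6.15 and 6.08 in 3aKO, with 3aKO 3 above the wt median of 6.95, and Ifi35 read 9.55, 9.95, 10.03, 9.87 and 9.98 against a wt median of 10.09.

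Other genes of the pathway, 84 measured out of 95 listed, were read in the same fits. In 1KI against wt 51 of 84 were above 0 (43.3% of all genes), with a median of 0.077. In 3bKI against wt 60 of 84 were (53.1% of all genes), with a median of 0.12. None was called in either, where 0.209% and 1.09% of all genes were called higher. In 3bKI against 3aKO 4 of 84 were called higher, where 2.92% of all genes were. Of the interferon ligands, 0 of 9 were above 0 in 1KI and 5 of 9 in 3bKI. Ifnb1 had -0.36 and Ifna2 -0.31 in 1KI, neither called. Except for Ifna1, every measured ligand had a mean over all columns below the dim limit of 5.70, such as Ifnb1 at 4.52. Signs of their changes are therefore of signals near the floor. Ifna2 was called in 3bKI against 3aKO, at 0.41 ± 0.096 (adjusted p = 0.0323), with group means of 4.94 and 4.53, both below the dim limit of 5.70. Receptors and JAK-STAT kinases were above 0 for 7 of 9 in 1KI, led by Ifngr2 at 0.60 ± 0.19, and for 5 of 9 in 3bKI, with Ifngr1 at 0.52 ± 0.18 and none called. Among feedback genes, 3 of 5 in 1KI and 4 of 5 in 3bKI were above 0, none called, with Socs1, a JAK inhibitor, at 0.52 ± 0.17 in 3bKI.

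Against wt, sensors and adaptors were above 0 for 11 of 17 in both tumour groups (all genes: 43.3% in 1KI and 53.1% in 3bKI). Mb21d1, which encodes the cytosolic DNA sensor cGAS, read 0.40 ± 0.094 above wt in 3bKI (adjusted p = 0.0512) and was called against 3aKO at 0.40 ± 0.078 (adjusted p = 0.0202). Other genes typical of interferon gamma were above 0 for 8 of 11 in 1KI and 11 of 11 in 3bKI, none called. The chemokine Cxcl10 had 1.33 ± 0.37 in 1KI (adjusted p = 0.137) and 1.29 ± 0.58 in 3bKI, and Cxcl9 had 1.68 ± 0.72 in 3bKI. In a further list of interferon-stimulated genes, 22 of 33 in 1KI and 24 of 33 in 3bKI were above 0. Of these, Ly6e at 1.13 ± 0.22 and Ifitm3, which blocks viral entry, at 0.60 ± 0.13 were called in 3bKI against 3aKO. Against wt the 3bKI change of Ly6e was 0.63 ± 0.20 and not called. Ifitm3 was itself lower in 3aKO than in wt, by -0.33 ± 0.083 without overlap in normalization 1, though not called. Against wt in 1KI the lowest p were those of Slfn5 (0.63 ± 0.16) and Ddx60 (0.67 ± 0.18), neither called.

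Markers of the cell types that a liver sample can hold were read beside these genes, first against wt. Over all genes, 43.3% were above 0 and 0.209% called higher in 1KI against wt, and 53.1% and 1.09% in 3bKI. Kupffer cell and macrophage markers were below 0 for 8 of 10 in 1KI against wt (median -0.51, none called), and their mean log2 level ran from 8.41 to 9.84 in 1KI and from 8.94 to 10.06 in wt. In 3bKI they were above 0 for 10 of 10 (median 0.26, none called), with a range of 9.21 to 11.05 against 8.82 to 9.97 in wt. T and NK cell markers were above 0 for 0 of 9 in 1KI and 8 of 9 in 3bKI, with ranges of 5.37 to 5.72 in 1KI and 5.52 to 6.47 in 3bKI, and 5.38 to 6.22 and 5.28 to 6.12 in the wt arrays set against them. Dendritic cell markers were above 0 for 4 of 8 in 1KI and 7 of 8 in 3bKI, with Itgax called at 0.87 ± 0.17 in 3bKI. Their ranges were 5.39 to 5.60 in 1KI and 5.49 to 5.64 in 3bKI, against 5.32 to 5.65 and 5.23 to 5.57 in wt.

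Stellate cell markers were above 0 for 7 of 8 in 1KI, with Pdgfrb called, and for 8 of 8 in 3bKI, with 3 collagen genes called. Their ranges were 8.13 to 8.52 in 1KI and 8.05 to 8.69 in 3bKI, against 7.43 to 7.999 and 7.33 to 7.90 in wt. Neutrophil markers were above 0 for 0 of 6 in 1KI and 6 of 6 in 3bKI, and B and plasma cell markers for 2 of 6 and 6 of 6. Endothelial markers were above 0 for 6 of 8 in both, with Plvap called in 1KI, and cholangiocyte markers for 3 of 4 in both. Hepatocyte markers were above 0 for 3 of 7 in 1KI and 1 of 7 in 3bKI, none called.

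More markers were called in 3bKI against 3aKO, the comparison with the most called members. Across all genes 2.92% were called higher there and 6.27% lower. Of 7 hepatocyte markers 2 fell, Apob at -1.24 ± 0.12 (adjusted p = 0.00398, limma) and Cps1 at -0.43 ± 0.085 (adjusted p = 0.0215), and the mean level of the list ran from 13.54 to 13.79 in 3bKI against 13.91 to 14.01 in 3aKO. Lyz2 of the 10 Kupffer cell and macrophage markers, Itgax of the 8 dendritic cell markers and Cd79a of the 6 B and plasma cell markers rose, by 1.06 ± 0.27, 0.84 ± 0.22 and 0.40 ± 0.11. Of the 8 stellate cell markers, 3 collagen genes rose by 1.15 to 1.55. In 1KI against 3aKO no marker was called. The part of these cells in the levels of the interferon-stimulated genes was not tested.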

How the data were processed

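RNA of 21 mouse livers and liver tumours was measured on Affymetrix arrays; per the labels, labelled cRNA was made from 5 ug of total RNA. The authors deposited log2 expression values per probe set in 33 columns from 2 normalization runs, with 12 arrays in both; the method of summarising and normalizing is not given in the sources used here. The number of arrays limits the precision, and p-values weigh a group difference against the spread between samples.

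Of 45101 probe sets, 64 were controls, 34945 carried 1 gene symbol, 932 several and 9160 none. The brightest single-symbol probe set represented each of 18193 genes; 15 members had a choice among several. For every comparison only the arrays of its 2 groups entered the fit by limma 3.58.1 (R 4.3.3, lmFit then eBayes), two-sided, with Benjamini-Hochberg adjustment over all genes and calls at an adjusted p under 0.05. The fit was also run on simulated data in which both groups had the spread of the control group. That run does not cover groups of unequal spread, such as tumours and normal livers. "Above 0" counts members with a positive log2 change, and the dim limit is the 40% point of gene means. Of the 39 members, 34 lay above it, and Cmpk2, Ifit2, Mx1, Oas3 and Oasl2 lay below it. Sex was read from Xist and Y-linked genes.

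Members and lists were chosen with earlier results of these data known. All members could be named; values of every array are given in each comparison for the called members of lowest p (at most 8, or the 5 of lowest p where fewer than 3 were called), and further ones were added after their values were seen. From each pathway list the called genes, or the 2 of lowest p, were eligible. Same-numbered arrays were not treated as pairs in the main fits. Alternatives covered normalization, centring, dim genes, probe sets, variance models, sex, a replicate block and left-out arrays; leaving out 3bKI 2 and 3 together was chosen after seeing the data.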

Additional observations from a re-analysis of the deposited data

Results flagged for a closer look

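A single array standing apart was looked for in 45 groups of values. These were the members of lowest p in each comparison, in the groups compared, and the set means of each group. In 2 of them an array stood apart, which is no more than the 1 in 20 that chance gives. Oasl1 read 8.07 in wt 6 (normalization 1), against 6.52 to 7.03 in the other wt livers. Bst2 read 9.88 in 3aKO 1, against 10.23 to 10.37 in the other 3aKO livers. Members and groups outside this choice were not examined, and some hold an array far from the others. Trim25 read 12.43 in 3bKI 2, against 9.81 to 10.07 in the other 3bKI tumours. Mx2 read 8.52 in 1KI 2, against 7.16 to 7.49 in the other 1KI tumours. Ifi27l2a read 7.83 in wt 6 (normalization 1), against 5.91 to 6.56 in the other wt livers. On its brightest probe set Eif2ak2 differed in direction between the tumour groups, while its probe sets had mixed signs in 3bKI against wt. Its log2 change against wt was 0.47 in 1KI, with every tumour above the wt mean, and -0.38 in 3bKI, with every tumour below it; neither was called, and the difference was not tested.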

How the results depend on the processing

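Directions held in all alternatives run for the 5 to 8 members of lowest p in each comparison, but counts of called members did not. Those members were picked by p in the same arrays, so a reversed direction was unlikely from the outset. Of the 15 members with several probe sets, 2 to 5 a comparison had mixed signs, among them Gbp2, Dhx58, Xaf1 and Samhd1 in 1KI against wt and Ddx58, Eif2ak2, Adar and Xaf1 in 3bKI against wt. For 1KI against wt (6 called) the count was 14 with all 3 groups in the fit, 2 over female arrays and 3 without 1KI 3 and 4; single left-out arrays gave 1 to 8, with a member median of 0.33 to 0.51. For 1KI against 3aKO (0 called) it was 9 with all 3 groups, 2 with array weights or without 1KI 3 and 4, and 1 with quantile normalization, dim genes left out, every probe set tested, trend and robust variances or a sex term; left-out arrays gave 0 to 3 and medians of 0.41 to 0.63. For 3bKI against wt (6) it was 1 with a sex term, 0 over female arrays and 1 without 3bKI 2 and 3; left-out arrays gave 1 to 9 and 0.25 to 0.53. For 3bKI against 3aKO (9 higher, 1 lower) it was 2 higher with a sex term, 1 higher and 0 lower without 3bKI 2 and 3, and 0 lower with the mean of probe sets; left-out arrays gave 4 to 10 higher, 1 lower and medians of 0.32 to 0.65. For 3aKO against wt the count was 0 throughout, with medians of -0.156 to 0.0125 over left-out arrays. The cause of these shifts was not tested.

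A fit with the replicate number as a block kept only arrays whose number occurs in both groups. It left out wt 6 and 7 against 1KI and 3aKO, wt 5, 6 and 7 against 3bKI, and 3aKO 5 against 3bKI. In normalization 1 the member means were -0.20, 0.42 and 0.24 in wt 5, 6 and 7 and 0.37 in 3aKO 5. The count was then 1 in 1KI against wt, and 15 higher and 1 lower in 3bKI against wt. It was 3 higher and 0 lower in 3bKI against 3aKO, and the median in 3aKO against wt was 0.055. The block and the left-out arrays cannot be told apart here. Same-numbered arrays correlated at -0.47 to 0.44 over all comparisons. Differently numbered arrays were not taken as a reference, so these values can neither show nor exclude a pairing. Of the pathway genes, Pias1 in 1KI against wt turned to -0.022 over female arrays, Ifnar1 in 1KI against 3aKO to -0.044 and Jak1 in 3bKI against wt to 0.081 with the mean of probe sets, and Ptpn6 in 3bKI against wt to -0.055 without 3bKI 3 (0.22 without 3bKI 4) and to -0.089 without 3bKI 2 and 3. None of these had been called. With 4 to 7 arrays a group, dim genes (5 of the 39 members) and those that vary within wt, such as the GTPases, limit what can be called.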

Other observations

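Within wild-type liver the set already varied between animals. Of the 39 genes, 15 had their highest wt value in wt 3, 12 in wt 6 and 9 in wt 7, and 25 had their lowest in wt 1 or wt 4. In 3aKO the highest value belonged to 3aKO 5 for 22 genes and to 3aKO 3 for 12. Family means followed the same arrays unevenly. The IFIT mean was 1.01 above the wt mean in wt 6 and 0.67 in wt 3, while the GTPase mean was 0.76 and 1.59 in those livers. In both sexes of wt the ranges of the set mean overlapped, at -0.058 to 0.42 in the 3 females and -0.42 to 0.24 in the 4 males. The females wt 3 and wt 6, at 0.38 and 0.42, nevertheless lay above every male. In 3aKO of normalization 1 the females were at -0.28, 0.19 and 0.37 and the males at -0.34 and -0.20.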
